A study of Arabidopsis thaliana with 20 samples.

Results

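QQS (AT3G30720), AT3G04650 and AT1G75945 are 3 Arabidopsis thaliana genes whose level in every sample of the PPD3 overexpression family lay far to one side of the level in wild type. They were picked by that property, from 34262 genes counted in each sample and 21703 that passed a filter on low counts, with results of these data already known. All 3 passed the filter. QQS and AT3G04650 were higher than wild type (WT) in all 17 line samples, by 4.21 to 8.99 times between group means, and AT1G75945 was lower in all 17, by 17.1 to 93.1 times. Among the lines themselves, AT1G75945 was 4.00-fold higher in dwarf than in non-dwarf lines and AT3G04650 was 0.720-fold as high. WT samples carry no weight in these differences, although they enter the fit's estimate of spread. Between transgene-free lines and lines that carry the transgene, none of the 3 was called, where 0.0184% of all tested genes were. That contrast is not balanced for plant size.

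RNA of whole aboveground tissue at bolting was sequenced from 20 samples of Col-0 plants, all grown on soil at 22 and 20 °C with 12 h of light. The 5 line groups descend from plants with a PPD3 overexpression transgene (PPD3-OX), where PPD3 is a PsbP-domain protein of the plastid. Gen2 dwarf (5 samples) and Gen2 large (3 samples) are transgene-free progeny of Gen1, Gen1 dwarf (3 samples) are transgene-free (null) siblings of the T+ plants, and T+ dwarf and T+ normal (3 samples each) carry the transgene. Gen2 dwarf thus has 5 samples where the series' design states 3 replicates each, and none of the 5 was left out. WT (3 samples) has no transgene history in the labels, and 1 of its samples, WT 3, has an ecotype label of Col-1 beside a source name of Col-0. The labels do not name the promoter that drives the transgene, the number of independent lines, the number of plants in a sample, or how the WT plants are related to the line family. Replicates are labelled biological, and p-values here cover only the variation among those samples. PPD3 itself averaged 107 ± 10.8 CPM (a gene's count scaled to the library size) in Gen2 dwarf (SD, n = 5), 99.0 ± 5.89 in Gen1 dwarf, 591 ± 189 in T+ dwarf, 143 ± 8.27 in Gen2 large, 700 ± 97.4 in T+ normal and 112 ± 16.1 in WT (n = 3 each), and every T+ sample lay above every other sample.

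QQS, named qua-quine starch, is an orphan gene: it encodes a short protein with no recognised relative outside Arabidopsis thaliana. Plants with less QQS RNA hold more leaf starch and plants with more hold less, its protein binds the transcription factor subunit NF-YC4, and its RNA level is known to differ between accessions and between stocks of 1 accession together with DNA methylation of repeats upstream of the gene. The annotation describes AT3G04650 as an FAD/NAD(P)-binding oxidoreductase family protein, a class of enzymes that move electrons through a bound flavin. It describes AT1G75945 as an uncharacterized protein.

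In the TAIR10.1 annotation, QQS lies at chr3:12349047-12349933 on the plus strand and has 3 exons and a protein of 59 residues. AT3G04650 lies on the same chromosome, 11.08 Mb away, at chr3:1261857-1264687 on the plus strand, with 8 exons and 486 residues. AT1G75945 lies at chr1:28515245-28515916 on the minus strand, with 2 exons and 61 residues. None of the 3 overlaps another annotated locus, so their counts are not shared with an overlapping or antisense gene although the library kit does not mark strand. The 250 bases before each annotated start, on the gene's strand, are shown because QQS is known for methylation of this stretch and because the 3 genes separated the same samples. Capitals mark CG dinucleotides, a context in which plants maintain DNA methylation, which was not analysed here. The first bases of the AT3G04650 stretch lie within AT3G04640, a gene on the opposite strand that starts 173 bases before AT3G04650. The sequences are from RefSeq, TAIR10.1.
QQS, chr3:12348797-12349046 (+): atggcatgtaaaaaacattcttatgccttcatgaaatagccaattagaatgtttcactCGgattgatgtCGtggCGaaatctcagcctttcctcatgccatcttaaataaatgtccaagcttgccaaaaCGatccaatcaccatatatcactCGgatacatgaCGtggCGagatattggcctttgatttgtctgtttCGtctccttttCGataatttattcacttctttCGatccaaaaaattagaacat
AT3G04650, chr3:1261607-1261856 (+): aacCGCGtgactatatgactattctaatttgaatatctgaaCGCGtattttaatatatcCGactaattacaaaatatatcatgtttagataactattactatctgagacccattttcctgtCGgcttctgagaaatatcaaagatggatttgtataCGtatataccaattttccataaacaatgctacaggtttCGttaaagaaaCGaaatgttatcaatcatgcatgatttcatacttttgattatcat
AT1G75945, chr1:28515917-28516166 (-): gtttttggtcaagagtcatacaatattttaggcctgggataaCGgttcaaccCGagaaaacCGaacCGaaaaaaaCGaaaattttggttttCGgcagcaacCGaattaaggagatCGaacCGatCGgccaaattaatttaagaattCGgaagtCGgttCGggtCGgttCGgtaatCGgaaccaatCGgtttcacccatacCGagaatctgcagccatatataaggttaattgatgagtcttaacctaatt

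The AT1G75945 stretch held 18 CG dinucleotides, a number reached by 0.714% of the 27437 upstream stretches of protein-coding genes, whose median was 5. The QQS stretch held 10, a number reached by 12.5% of them, and the AT3G04650 stretch held 9. The AT1G75945 stretch was rich in G and C as well, at 41.6% beside a median of 31.2%, a share that 5.31% of stretches reached. The QQS stretch also resembled itself: a window of 40 bases that starts 213 bases before the gene matched the window that starts 119 bases before it at 31 of 40 positions. A match that close between windows of the same stretch was found in 1.48% of upstream stretches. The word TCACTCGGAT begins 197 and 103 bases before the start, and an exact repeat of 10 bases or more was common, in 28.5% of stretches. In AT3G04650 and AT1G75945 the best pair of windows matched at 22 positions, a number that 72.4% of stretches reached. CCAAT, the letters that NF-Y complexes are known to bind, was searched on both strands: it occurs in QQS at 211 and 117 bases before the start and on the opposite strand at 76, in AT3G04650 at 86 and in AT1G75945 at 70, and in 46.0% of all upstream stretches. TATAAA, found in 47.4% of them, and CACGTG, found in 6.49%, occur in none of the 3.

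QQS was high in all lines and most variable among T+ normal samples. It stood at 36.1, 39.6, 48.9, 64.0 and 54.8 CPM in Gen2 dwarf, at 41.1, 37.1 and 32.3 CPM in Gen1 dwarf and at 35.8, 50.9 and 30.5 CPM in T+ dwarf. In Gen2 large it stood at 56.0, 68.0 and 55.3 CPM and in T+ normal at 56.5, 28.9 and 69.0 CPM, against 10.5, 8.14 and 7.57 CPM in WT. The line groups overlapped one another, with the lowest line sample, T+ normal 2, in the same group as the highest, T+ normal 3, and no line sample overlapped WT. Group means were 48.7 ± 11.3 CPM in Gen2 dwarf (n = 5), 36.8 ± 4.40 in Gen1 dwarf, 39.1 ± 10.6 in T+ dwarf, 59.7 ± 7.16 in Gen2 large, 51.4 ± 20.5 in T+ normal and 8.75 ± 1.57 in WT (SD, n = 3 each). In order of level the groups ran from Gen2 large through T+ normal, Gen2 dwarf, T+ dwarf and Gen1 dwarf down to WT, and each neighbouring pair of line groups in that order differed by less than the larger of its SDs. In whole aboveground tissue, more RNA per cell and more cells of a type that holds the RNA cannot be told apart.

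AT3G04650 was high in all lines too, and highest in the non-dwarf groups. It stood at 27.9, 39.0, 32.2, 31.1 and 38.5 CPM in Gen2 dwarf, at 36.4, 31.9 and 31.0 CPM in Gen1 dwarf and at 33.1, 35.1 and 37.0 CPM in T+ dwarf. In Gen2 large it stood at 49.2, 43.9 and 50.6 CPM and in T+ normal at 54.2, 49.1 and 36.1 CPM, against 5.40, 4.57 and 6.00 CPM in WT. The 3 dwarf groups overlapped, all Gen2 large samples and 2 of 3 T+ normal samples lay above every dwarf sample, and WT lay far below every line. Means were 33.7 ± 4.85 CPM in Gen2 dwarf (n = 5), 33.1 ± 2.92 in Gen1 dwarf, 35.1 ± 1.93 in T+ dwarf, 47.9 ± 3.55 in Gen2 large, 46.5 ± 9.33 in T+ normal and 5.32 ± 0.716 in WT (SD, n = 3 each). Gen2 large and T+ normal, the highest in the order of levels, did not differ beyond their spread, nor did the 3 dwarf groups that follow, and T+ dwarf lay below T+ normal by more than the SD of either.

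AT1G75945 was the reverse: expressed in WT and at a low level in the lines. It stood at 0.463, 0.543, 0.480, 0.294 and 0.949 CPM in Gen2 dwarf, at 0.643, 0.936 and 1.16 CPM in Gen1 dwarf and at 1.52, 0.492 and 0.431 CPM in T+ dwarf. In Gen2 large it stood at 0.277, 0.0884 and 0.139 CPM and in T+ normal at 0.149, 0.104 and 0.342 CPM, against 14.5, 15.7 and 16.7 CPM in WT. The non-dwarf lines were mostly the lowest and the dwarf lines lay between, with an overlap of Gen2 dwarf 4 and T+ normal 3, and every WT sample lay far above both. These levels rest on 17 to 124 counts per sample in the dwarf lines and 8 to 30 in the non-dwarf lines, against 1304 to 1763 in WT. A count of 0 allows up to 3 counts, which is 0.0255 to 0.0656 CPM depending on the sample and covers counting error only, so the RNA was detected in all 17 line samples. Means were 0.546 ± 0.243 CPM in Gen2 dwarf (n = 5), 0.913 ± 0.259 in Gen1 dwarf, 0.814 ± 0.611 in T+ dwarf, 0.168 ± 0.0975 in Gen2 large, 0.198 ± 0.126 in T+ normal and 15.6 ± 1.12 in WT (SD, n = 3 each). In order of level, WT was followed by Gen1 dwarf, T+ dwarf and Gen2 dwarf, whose neighbouring means differed by less than the larger SD, and then by T+ normal and Gen2 large, whose means did so too.

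**Figure D1:**
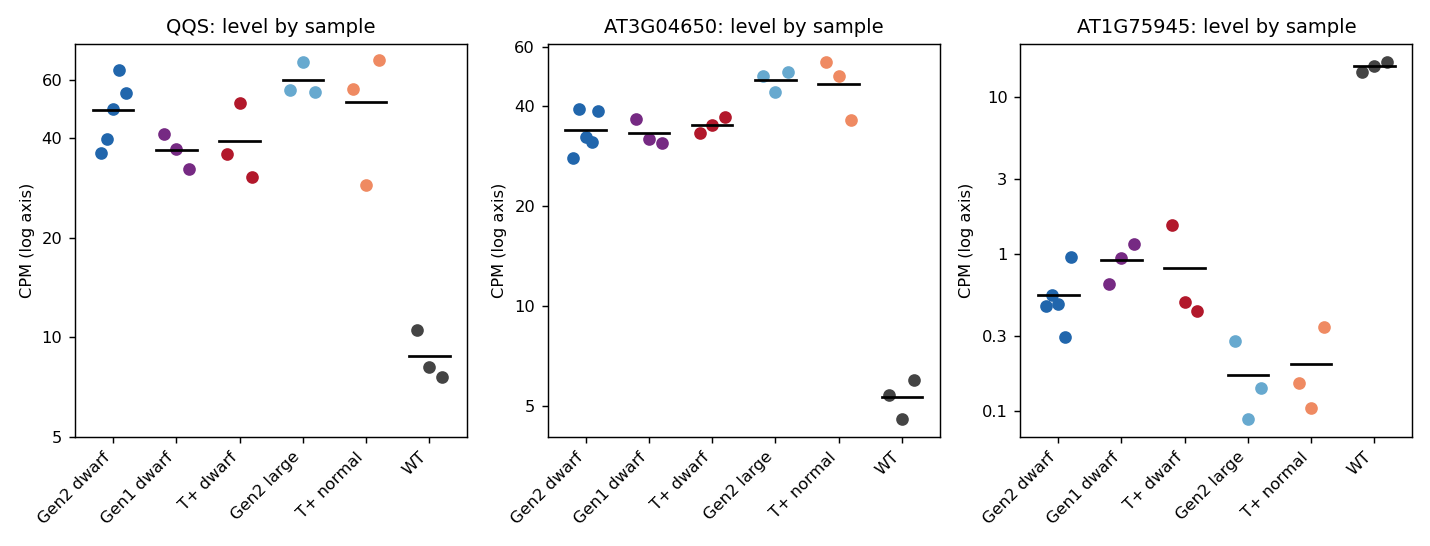
Level of QQS, AT3G04650 and AT1G75945 in each of the 20 samples, in CPM on a log axis. Points are samples, bars are group means, and groups run from Gen2 dwarf (n = 5) through the other line groups (n = 3 each) to WT (n = 3); the nearest line and WT samples are 28.9 and 10.5 CPM for QQS, 27.9 and 6.00 CPM for AT3G04650, and 1.52 and 14.5 CPM for AT1G75945.

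Per kilobase of exon, QQS averaged 53.6 to 87.0 CPM over the line groups and 12.7 CPM in WT. On the same scale AT3G04650 averaged 16.9 to 24.4 CPM over the line groups and 2.71 CPM in WT, and AT1G75945 averaged 0.364 to 1.98 CPM over the line groups and 33.9 CPM in WT. By length, AT1G75945 was thus the highest of the 3 genes in WT and the lowest in each line group. The spread between samples of a group, as a pooled SD of log2 CPM, was 0.36 for QQS, 0.19 for AT3G04650 and 0.65 for AT1G75945, beside a median of 0.22 over all tested genes. QQS was more variable than 71.6% of tested genes, AT3G04650 than 39.5% and AT1G75945 than 86.1%.

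The values that chose the genes are these levels against WT, which are given as a description with no test. Of all tested genes, 15 had every line sample above every WT sample, 0.0691% of them, and 23 had every line sample below, 0.106%. The gap between the nearest line sample and the nearest WT sample was 1.45 on the log2 CPM scale for QQS, 2.21 for AT3G04650 and 3.23 for AT1G75945. The nearest samples were T+ normal 2 and WT 1 for QQS, Gen2 dwarf 1 and WT 3 for AT3G04650, and T+ dwarf 1 and WT 1 for AT1G75945. The next gene above WT was AT1G67105, annotated as a non-coding RNA, with a gap of 0.93 and 7.21 to 39.8 CPM in lines against 0.961 to 3.76 CPM in WT. It was followed by AT1G47370 with a gap of 0.24, AT4G34930 with 0.21 and AT5G46500 with 0.12. The next below WT was CHIL, a chalcone isomerase-like protein of flavonoid synthesis, with a gap of 0.19 and 7.28 to 35.8 CPM in lines against 40.9 to 56.4 CPM in WT, followed by RUP1, AT2G23910 and AT1G23100 with gaps of 0.15, 0.15 and 0.13.

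**Figure D2:**
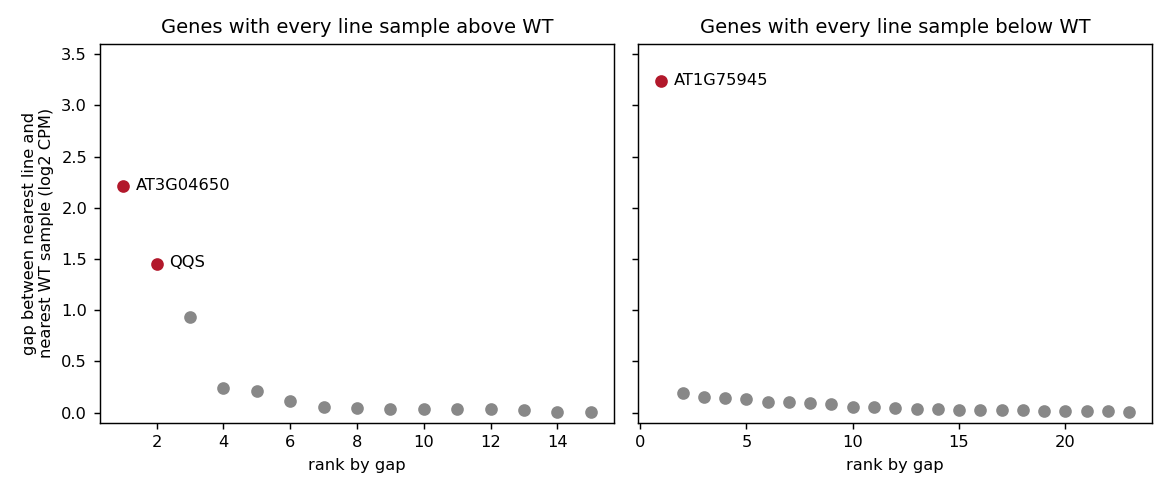
Gap in log2 CPM between the nearest line sample and the nearest WT sample for the 15 tested genes with all line samples above WT (left) and the 23 with all line samples below WT (right), ranked by gap. The 3 genes described here are in red at 2.21, 1.45 and 3.23, and the next widest gap is 0.93, for AT1G67105.

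The 5 comparisons with WT share the same 3 WT samples, and in each of them the history of the transgene and the family the plants come from cannot be told apart. All 3 genes passed edgeR's quasi-likelihood test in each of them, and of all tested genes these 3 alone were called in all 5. The tests use the values that picked the genes, so nothing is read from them. Over all tested genes the share called was 0.0968% for Gen2 dwarf, 2.01% for Gen1 dwarf, 0.0507% for T+ dwarf, 0.963% for Gen2 large and 1.34% for T+ normal, each against WT.

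Dwarf against non-dwarf plants was compared between line groups only, in a fit whose estimate of spread also takes in the WT samples. AT1G75945 was higher in dwarf plants wherever the comparison could be made. Over all lines it ranged from 0.294 to 1.52 CPM in 11 dwarf samples, with a median of 0.543, and from 0.0884 to 0.342 CPM in 6 non-dwarf samples, with a median of 0.144. In 10 of the 11 dwarf samples it lay above every non-dwarf line, and the exception was Gen2 dwarf 4. The log2 difference of dwarf from non-dwarf lines was 2.00 ± 0.35 (SE, 95% interval 1.26 to 2.74), with an adjusted p of 0.000296 by edgeR's quasi-likelihood test. Within Gen2, all 5 dwarf samples lay above all 3 large samples, with a log2 difference of 1.69 ± 0.50 (adjusted p = 0.0338, edgeR). Within T+, all 3 dwarf samples lay above all 3 normal samples, with a log2 difference of 2.02 ± 0.53 (adjusted p = 0.0164, edgeR).

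The call within T+ was lost without T+ dwarf 1 (log2 difference 1.20, adjusted p = 0.143, edgeR), without T+ normal 1 (1.85, 0.0685) and without T+ normal 2 (1.71, 0.0664). The call for AT1G75945 within Gen2 was lost without Gen2 dwarf 5 (1.37, 0.0713), Gen2 large 2 (1.34, 0.139) or Gen2 large 3 (1.58, 0.120), and in a fit of the line samples alone (1.69, 0.0539). The contrast over all lines kept its call in all 17 fits that leave out 1 line sample, with log2 differences of 1.71 to 2.30. In the fit of the line samples alone, its adjusted p was 0.00108 (edgeR), and that of the contrast within T+ was 0.0306. Of 8 flower markers, 3 were called higher, 1 lower and 4 neither in T+ dwarf than in T+ normal, where 15% of all tested genes were called. Their summed level was 1.87 to 5.08 CPM in T+ dwarf and 1.34 to 1.98 CPM in T+ normal, and these ranges overlap. In Gen2 none of the 8 was called higher and 1 was called lower in dwarf than in large samples, with sums of 1.11 to 2.26 CPM in Gen2 dwarf and 1.86 to 3.45 CPM in Gen2 large. The part of flower tissue in the AT1G75945 difference was not tested.

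AT3G04650 was lower in dwarf than in non-dwarf lines. It ranged from 27.9 to 39.0 CPM in the 11 dwarf samples, with a median of 33.1, and from 36.1 to 54.2 CPM in the 6 non-dwarf samples, with a median of 49.2. Of the dwarf samples 7 lay below every non-dwarf line, and the overlap came from T+ normal 3, the lowest non-dwarf sample. The log2 difference was -0.47 ± 0.09 (95% interval -0.66 to -0.28; adjusted p = 0.000539, edgeR), and it kept its call in all 17 fits without 1 line sample, with values of -0.57 to -0.41. Within Gen2 all 5 dwarf samples lay below all 3 large samples, with a log2 difference of -0.51 ± 0.13 (adjusted p = 0.0152, edgeR). That call was lost without Gen2 large 1 (-0.50, adjusted p = 0.0510, edgeR) or Gen2 large 3 (-0.47, 0.0738). Within T+ the log2 difference was -0.41 ± 0.15 and did not pass the test (adjusted p = 0.0671, edgeR), while without T+ normal 3 it was -0.58 and passed (0.00978), and by DESeq2 it was -0.41 and passed (0.0473).

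Leaf markers were read beside AT3G04650. Of 6 nuclear photosynthesis genes, 4 were called lower and none higher in dwarf than in non-dwarf lines, where 35% of all tested genes were called, with a median log2 difference of -0.62. Within T+ 4 of the 6 were called lower (median -0.80), where 15% of all tested genes were called. Within Gen2 1 of the 6 was called lower (median -0.29), where 13.5% were. Their summed level was 14948 to 19884 CPM in Gen2 dwarf, 13320 to 15994 in Gen1 dwarf, 15637 to 17781 in T+ dwarf, 19899 to 32067 in Gen2 large, 25007 to 33837 in T+ normal and 17444 to 21784 in WT. All 6 had counts in every sample. Their part in the difference of AT3G04650 and AT1G75945 by plant size was not tested.

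QQS was 30.5 to 64.0 CPM in the 11 dwarf samples, with a median of 39.6, and 28.9 to 69.0 CPM in the 6 non-dwarf samples, with a median of 56.2. Both the lowest and the highest sample belonged to T+ normal, so the groups overlapped throughout. The log2 difference of dwarf from non-dwarf lines was -0.43 ± 0.16 (95% interval -0.77 to -0.08) and missed the threshold (adjusted p = 0.0507, edgeR). Without T+ normal 2 it was -0.59 and passed (adjusted p = 0.00310, edgeR), as it did without T+ dwarf 2 (-0.52, 0.0203), Gen1 dwarf 1 (-0.47, 0.0474) or Gen2 dwarf 4 (-0.48, 0.0264). These were 4 of the 17 fits without 1 line sample. In the others it missed the threshold, as without T+ normal 3 (-0.32, adjusted p = 0.154, edgeR). With DESeq2 it passed (-0.43, 0.0243), and with no scaling factor it missed (-0.37, 0.0867, edgeR). Within Gen2, 4 of 5 dwarf samples lay below all large samples, with a log2 difference of -0.30 ± 0.23 (adjusted p = 0.423, edgeR), and within T+ it was -0.40 ± 0.26 (0.333). Of the 3 genes, 2 were thus called over all lines, where 35% of all tested genes were, 2 within Gen2, where 13.5% were, and 1 within T+, where 15% were. The dwarf effect did not differ detectably between Gen2 and T+ in any of the 3: the log2 difference of the effects was -0.33 ± 0.73 for AT1G75945, -0.10 ± 0.20 for AT3G04650 and 0.10 ± 0.35 for QQS (adjusted p 0.894 to 0.944, edgeR; 0.654% of all tested genes were called).

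**Figure D3:**
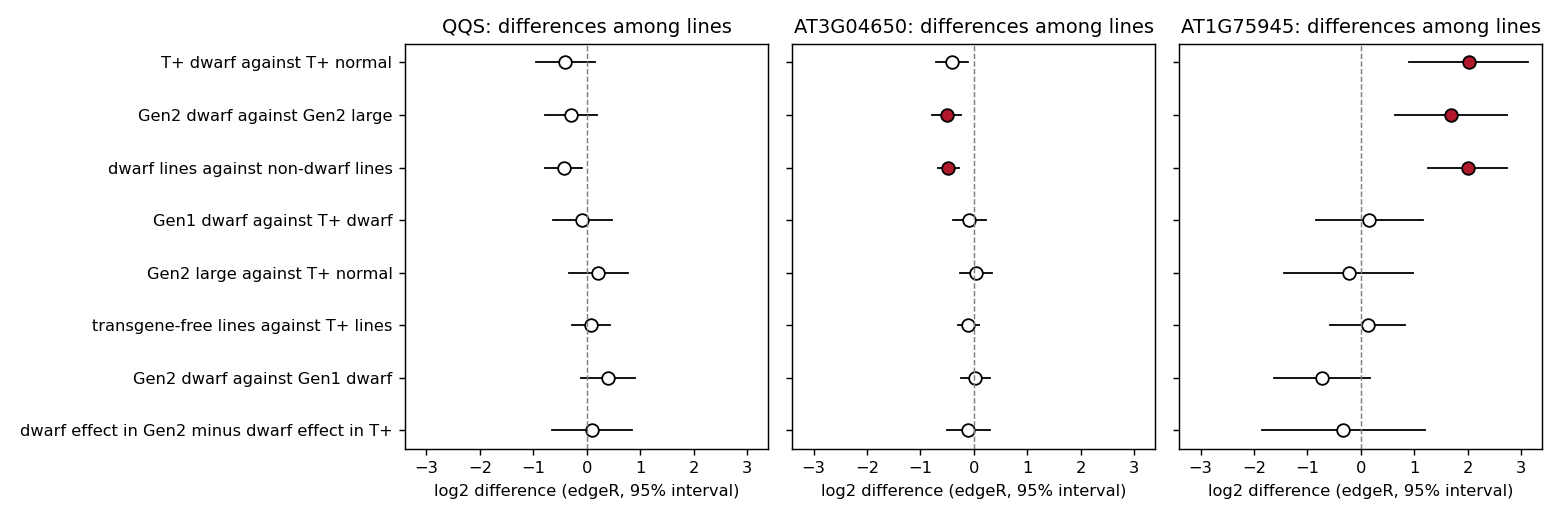
Log2 differences between line groups for each gene, with 95% intervals from edgeR; filled points passed an adjusted p of 0.05 over 21703 genes. AT1G75945 lies to the right of 0 and AT3G04650 to the left in the 3 comparisons by plant size at the top, at 2.02, 1.69 and 2.00 and at -0.41, -0.51 and -0.47, and no comparison by transgene or generation is filled.

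**Figure D4:**
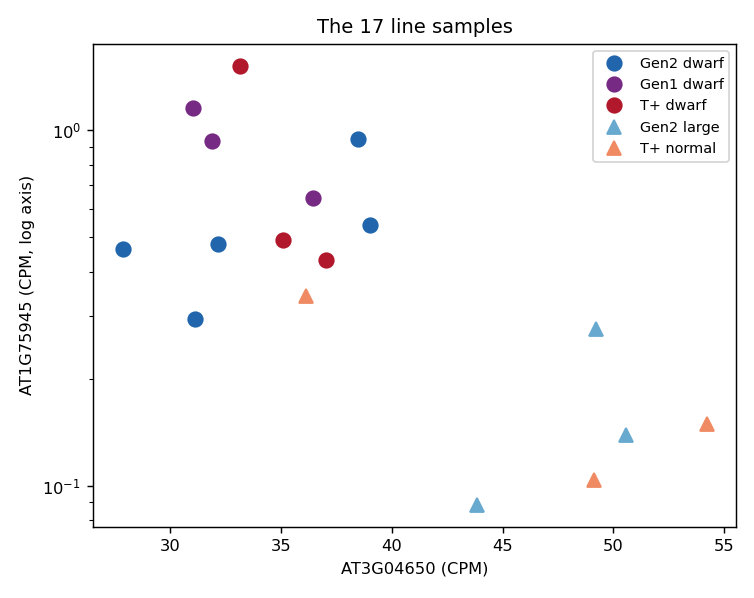
AT1G75945 (log axis) against AT3G04650, both in CPM, in the 17 line samples; circles are dwarf and triangles are non-dwarf groups. The 6 triangles lie at or below 0.342 CPM of AT1G75945, and 5 of them lie at or above 43.9 CPM of AT3G04650, with T+ normal 3 at 36.1 CPM beside the dwarf samples.

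Transgene-free plants were next set against plants with the transgene. The mean of Gen1 dwarf, Gen2 dwarf and Gen2 large was set against the mean of T+ dwarf and T+ normal. Dwarf groups weigh more on the transgene-free side, so part of any difference by plant size enters this contrast. Over all lines, QQS ranged from 32.3 to 68.0 CPM in 11 transgene-free samples, with a median of 48.9, and from 28.9 to 69.0 CPM in 6 T+ samples, with a median of 43.3. AT3G04650 ranged from 27.9 to 50.6 CPM in transgene-free and from 33.1 to 54.2 CPM in T+ samples, and AT1G75945 from 0.0884 to 1.16 CPM in transgene-free and from 0.104 to 1.52 CPM in T+ samples. The ranges overlapped almost wholly for each gene. The log2 difference was 0.08 ± 0.17 for QQS (95% interval -0.27 to 0.43), -0.10 ± 0.09 for AT3G04650 (-0.29 to 0.09) and 0.13 ± 0.33 for AT1G75945 (-0.57 to 0.83), with adjusted p between 0.751 and 0.928 by edgeR. PPD3 differed in the same contrast by -2.49 ± 0.11 (adjusted p = 1.16e-10, edgeR). In this contrast the intervals leave room for differences of up to 1.35-fold for QQS, 1.22-fold for AT3G04650 and 1.77-fold for AT1G75945. The test thus does not show equal levels, and these bounds are not those of plants matched for size.

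Dwarf siblings and non-dwarf plants were also compared separately. Gen1 dwarf differed from T+ dwarf by -0.08 ± 0.26 for QQS, -0.08 ± 0.15 for AT3G04650 and 0.16 ± 0.48 for AT1G75945 on the log2 scale (adjusted p = 0.997 for each, edgeR). Gen2 large differed from T+ normal by 0.22 ± 0.26 for QQS, 0.04 ± 0.15 for AT3G04650 and -0.23 ± 0.58 for AT1G75945 (adjusted p 0.806 to 0.945, edgeR). Between the transgene-free dwarf generations, Gen2 dwarf differed from Gen1 dwarf by 0.40 ± 0.24 for QQS, 0.03 ± 0.13 for AT3G04650 and -0.72 ± 0.43 for AT1G75945 (adjusted p 0.656 to 0.981, edgeR). None of the 3 genes was called in these 4 comparisons, where 0.0184% of all tested genes were called for transgene-free against T+ lines, 0.00461% for Gen1 dwarf against T+ dwarf, 0.313% for Gen2 large against T+ normal and 0.235% for Gen2 dwarf against Gen1 dwarf. A single test of any difference among the 5 line groups called AT1G75945 (F = 8.61, adjusted p = 0.00475, edgeR) and AT3G04650 (F = 7.19, 0.00910) but not QQS (F = 2.39, 0.203), beside 23.5% of all tested genes. Without T+ normal 2, QQS passed that test too (F = 5.50, adjusted p = 0.0285, edgeR).

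The genes next to each member were read to see how far along the chromosome the separation from WT reached. Around QQS, GDU6 lies 2538 bases beyond its end and had 0 to 0.263 CPM in lines and 0.242 to 0.282 CPM in WT, and AT3G30730 had 0 to 0.155 CPM in lines and 0.0505 to 0.243 CPM in WT. The 2 loci of the files before QQS, AT3G30705 and AT3G06065, had no count in any sample. GDU6, a gene of the glutamine dumper family, and AT3G30730 were thus near the limit of detection. Next to AT3G04650, AT3G04640, a glycine-rich protein gene on the opposite strand that starts 173 bases before it, had 1.39 to 16.0 CPM in lines and 4.51 to 7.77 CPM in WT. WDL1, a microtubule-associated WVD2-like protein, had 8.87 to 23.1 CPM in lines and 9.36 to 17.3 CPM in WT, and WRKY39, a transcription factor, had 14.7 to 29.5 CPM in lines and 16.9 to 22.0 CPM in WT. AT3G04660, which begins 36 bases after AT3G04650 ends, had at most 8 counts in a sample.

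Next to AT1G75945, SKP1, a subunit of SCF ubiquitin ligases that starts 602 bases from it on the opposite strand, had 97.9 to 158 CPM in lines and 114 to 158 CPM in WT. AT1G75960 had 2.01 to 6.22 CPM in lines and 2.16 to 4.31 CPM in WT, and on the other side the anther genes ATA27 and EXL6 had at most 8 counts in a sample. In none of these neighbours did the lines lie on one side of WT, and none of the 7 that were tested was called against WT by edgeR in any line group. AT3G30705, AT3G06065, AT3G04660, ATA27 and EXL6 did not pass the filter and were not tested. Within 50 kb of AT3G04650, 0 of 28 tested genes were called in any of the 5 comparisons with WT. Within 50 kb of AT1G75945, 1 of 28 was, CPK29, a calcium-dependent protein kinase, which was lower in Gen2 large (log2 difference -0.91, adjusted p = 0.0375, edgeR) and in T+ normal (-0.90, 0.0340). Within 50 kb of QQS only GDU6 and AT3G30730 could be tested, of 25 annotated loci. AT1G75945 lies 168.6 kb from PPD3. Of 46 tested genes between them, CPK29 and PUB43, a U-box ubiquitin ligase, were called against WT, PUB43 in Gen1 dwarf (0.61 ± 0.11, adjusted p = 0.00833, edgeR). Over all tested genes 0.0507% to 2.01% were called in these comparisons. Every line sample lay above WT in 0.0691% of them and below WT in 0.106%. Low counts among neighbours are thus near the background and say nothing particular of these regions.

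**Figure D5:**
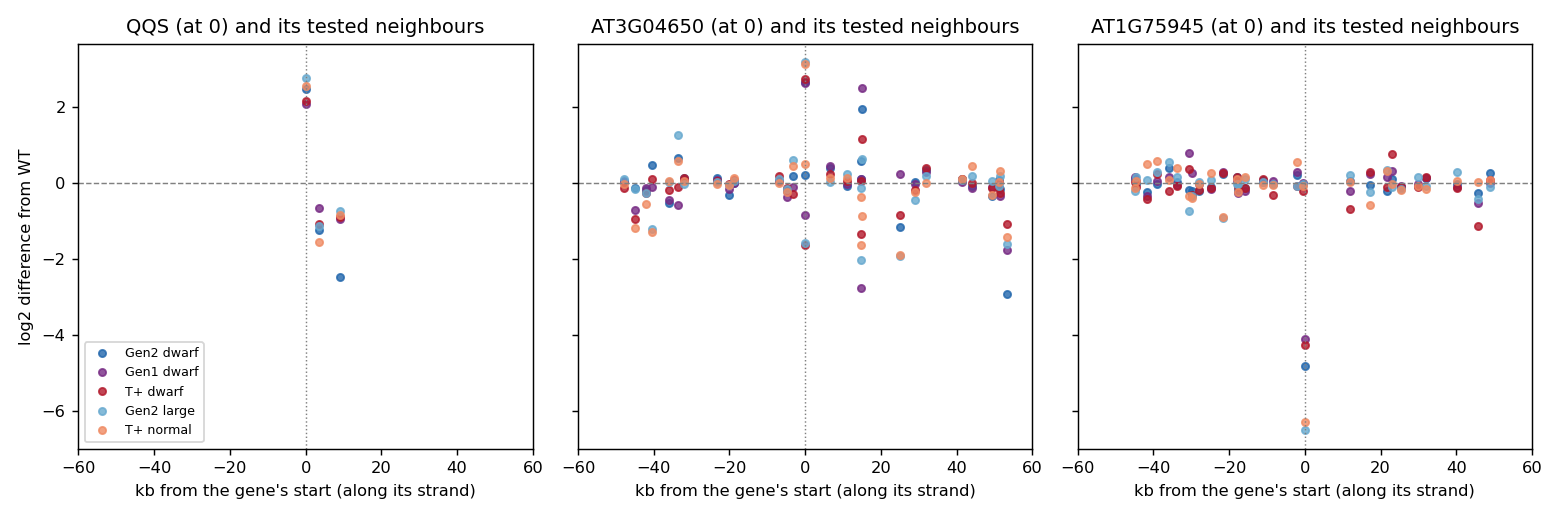
Log2 difference of each line group from WT for the 3 genes, drawn at 0 kb, and for tested genes whose span lies within 50 kb, by distance between starts along the gene's own strand. Around AT3G04650 the 28 neighbours spread from -2.91 to 2.50 with none called, around AT1G75945 the 28 neighbours spread from -1.12 to 0.78, and around QQS there are 2. Over all tested genes 0.0507% to 2.01% were called in these comparisons.

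The genes whose log2 CPM ran most like each of the 3 over the 20 samples were found by Pearson correlation, which includes the step between the lines and WT that picked the 3 genes. For QQS they were AT3G04650 (0.911), the non-coding RNA AT3G06655 (0.785) and AT3G23080, a polyketide cyclase and lipid transport family protein (0.768). For AT3G04650 they were QQS (0.911), AT4G34930, a phospholipase C-like phosphodiesterase (0.831), and AT5G49430, a WD40 and bromodomain protein (0.820). For AT1G75945 they were MYB12, an activator of flavonol synthesis genes (0.792), AT1G66480, annotated as plastid movement impaired 2 (0.784), and SDHAF2, a succinate dehydrogenase assembly factor (0.782). MYB12 overlapped between groups, with 0.299 to 1.63 CPM in lines and 1.40 to 2.37 CPM in WT. SDHAF2 did not, with at most 39.0 CPM in lines and a highest WT level of 41.6 CPM.

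With every sample centred on its group mean, which takes out the step, other genes came first. The correlation of QQS with AT3G04650, 0.911 over all 20 samples, was 0.27 over the 17 line samples and -0.20 over these 17 once centred. For QQS they were AT2G32340, a TraB family protein (0.889), AT4G02725 (0.867) and AT5G65613 (0.865). For AT3G04650 they were AT3G02450, a cell division protein ftsH (0.950), AT4G36390, a methylthiotransferase (0.920), and FAD5, a fatty acid desaturase of the plastid (0.912). For AT1G75945 they were ATXR2, a histone-lysine N-methyltransferase (0.816), AT5G52050, a MATE efflux protein (0.815), and AT2G25150, an acyl-transferase (0.793). These are the highest of 21703 values each, so they describe these samples only, and the 2 genes of a pair share each sample's library and depth.

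QQS is known to alter starch content, so the genes of starch synthesis and breakdown were read beside it. Of 36, all tested, 1 was called against WT in any line group: BAM1, a plastid beta-amylase, was higher in Gen1 dwarf (log2 difference 0.58 ± 0.14, adjusted p = 0.0423, edgeR). In that comparison 2.01% of all tested genes were called, so 1 of 36 is near the background. The list's median log2 difference from WT was between -0.18 in Gen1 dwarf and 0.05 in T+ normal, beside medians between -0.02 and 0.01 over all tested genes. SS3, the starch synthase whose mutant led to the discovery of QQS, differed from WT by at most 0.14 ± 0.16 on the log2 scale, in T+ normal, and was not called in any line group. Between dwarf and non-dwarf lines 4 of the 36 were called higher and 9 lower (median -0.06, against 0.01 over all tested genes). With 35% of all tested genes called there, these counts are near the background. GBSS1, the granule-bound starch synthase that makes amylose, was higher in dwarf lines by 1.66 ± 0.25 (adjusted p = 9.23e-05, edgeR), and BAM1 by 0.61 ± 0.09 (7.47e-05). LSF2, a glucan phosphatase, was lower in dwarf lines (-0.53 ± 0.09, 0.000128). Of the large subunits of ADP-glucose pyrophosphorylase, APL1 was lower (-0.47 ± 0.12, 0.00432) and APL3 higher (0.46 ± 0.11, 0.00425).

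Of 11 genes for NF-YC subunits and the catalytic subunits of the kinase SnRK1, 7 were tested and none was called against WT in any line group, where between 0.0507% and 2.01% of all tested genes were called, so a count of 0 says nothing particular of these genes. NF-YC4, the known partner of QQS, averaged 17.2 ± 2.73 CPM in Gen2 dwarf (n = 5) and 19.2 ± 1.90 CPM in WT (n = 3), and its log2 difference from WT lay between -0.30 in Gen1 dwarf and 0.25 in T+ normal. Between dwarf and non-dwarf lines, where 35% of all tested genes were called, NF-YC4 was lower (log2 difference -0.36 ± 0.12, adjusted p = 0.0198, edgeR). NF-YC1 was lower too (-0.29 ± 0.11, 0.0445), while NF-YC2 (0.61 ± 0.15, 0.00421) and NF-YC3 (0.41 ± 0.09, 0.00129) were higher.

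Of 40 genes for DNA methylation and demethylation, all tested, 1 was called against WT: VIM3, a methylcytosine-binding protein, was lower in Gen1 dwarf (log2 difference -0.69 ± 0.14, adjusted p = 0.0185, edgeR), again beside 2.01% of all tested genes. The list's median difference from WT lay between -0.06 in Gen1 dwarf and 0.10 in Gen2 large. Between dwarf and non-dwarf lines 3 were called higher and 6 lower, with a median of -0.01 beside 0.01 over all tested genes. Of the 5 largest differences, VIM3 stood at -0.64 ± 0.09 (adjusted p = 2.97e-05, edgeR), the demethylase DML3 at -0.62 ± 0.16 (0.00471), VIM1 at -0.53 ± 0.12 (0.00201), the CHG methyltransferase CMT3 at -0.43 ± 0.06 (5.05e-05) and the chromatin remodeller DDM1 at -0.36 ± 0.11 (0.0172). These lists describe RNA only, and as counts among the lines they lie beside a share of 35% called over all tested genes.

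Library depth was 45728485 to 117753467 gene counts per sample, and 21742 to 24006 genes had a count. Markers of other tissues were low: 4 anther and pollen genes summed to at most 0.431 CPM and 8 root genes to 2.76 to 5.28 CPM, of which EXPA7 and RHD6 were at 0 in all 20 samples. The root marker ESB1 had counts in every sample, at 2.71 to 5.15 CPM, and made up most of the root sum. Leaf markers were the highest of these lists in every sample.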

How the data were processed

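The authors deposited 1 table of raw gene counts per sample. The submitters' processing notes name Trim Galore 0.4.1, STAR 2.7.0a and the TAIR10 build. Which program counted the reads, and whether it used strand, is not stated in the labels. The line for reads aligned to more than 1 place is 0 in every sample, which does not show how such reads were handled. RNA of near-identical copies may therefore be missed or misassigned. Lines that name no gene were left out (reads without a gene 0.776 to 1.14% and ambiguous reads 0.264 to 0.360% of gene counts), and all 285 organelle genes are at 0.

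The 3 genes and the gene lists were chosen with earlier results of these data known. The 20 samples entered 1 edgeR 4.0.16 fit (R 4.3.3) with a term per group, TMM scaling (factors 0.912 to 1.05), filterByExpr at a minimum count of 10 and robust quasi-likelihood tests (residual degrees of freedom 14). P-values were adjusted by Benjamini-Hochberg over the 21703 genes kept, and 0.05 was the threshold. Each gene had 9 comparisons among lines, and the difference between the dwarf effects was added after the data were seen. SE values derive from the quasi-likelihood F, and a log2 CPM has a prior count of 2. Alternatives were RLE or no scaling, no filter, line samples only, the replicate number as a block, each replicate left out, and DESeq2 1.42.0. The fit was tested on simulated data. Gene positions came from the TAIR10.1 annotation, which holds 32548 of the 34262 loci.

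Named genes were the 3 members and PPD3, the nearest 2 loci of the files on each side, the 3 genes most correlated with each member, the 5 genes on each side of WT with the widest gap, and called members of the lists, at most 5 per list. AT5G46500, CPK29, PUB43 and SS3 fall outside this rule and were named after their values were seen.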

Additional observations from a re-analysis of the deposited data

How the results depend on the processing

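The separation from WT held for all 3 genes under TMM, RLE and no scaling. Under the other scalings and without the filter, 14 to 19 genes lay above WT in all lines and 22 to 25 below. Dwarf against non-dwarf lines kept its call for AT1G75945 (1.95 to 2.04) and AT3G04650 (-0.49 to -0.41) under every alternative run. QQS passed there with RLE scaling (-0.43, adjusted p = 0.0454, edgeR) and DESeq2 (-0.43, 0.0243). It missed with no scaling factor (-0.37, adjusted p = 0.0867, edgeR), without the filter (-0.44, 0.0566) and with line samples only (-0.43, 0.0579). With DESeq2 AT3G04650 passed within T+ (-0.41, 0.0473), and with line samples only AT1G75945 lost its call within Gen2 (1.69, 0.0539, edgeR). Causes were not tested.

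The replicate numbers do not pair the samples: of 45 pairs with the same number in different groups, 8 had a correlation of deviations over 0.1 (range -0.44 to 0.39), and 7 of 20 samples correlated best with their own number. With the replicate block, over replicates 1 to 3, which also leaves out Gen2 dwarf 4 and 5, calls within Gen2 were lost for AT3G04650 (-0.55, adjusted p = 0.0509, edgeR) and AT1G75945 (1.55, 0.0867), QQS passed between dwarf and non-dwarf lines (-0.51, 0.0339), and uncalled QQS values changed sign for transgene-free against T+ lines (-0.0047) and for the dwarf effect in Gen2 minus that in T+ (-0.15).

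Without 1 replicate, dwarf against non-dwarf ranged from -0.59 to -0.32 for QQS; T+ dwarf against T+ normal from 1.20 to 2.64 for AT1G75945 and -0.58 to -0.28 for AT3G04650; Gen2 dwarf against Gen2 large from 1.34 to 2.29 for AT1G75945 and -0.58 to -0.46 for AT3G04650; and the F of any line difference from 1.76 to 5.50 for QQS. Values that were near 0 and uncalled changed sign. Gen1 dwarf against T+ dwarf ranged from -0.17 to 0.96 for AT1G75945 and -0.26 to 0.12 for QQS. Gen2 dwarf against Gen1 dwarf ranged from -0.031 to 0.11 for AT3G04650. Gen2 large against T+ normal ranged from -0.85 to 0.40 for AT1G75945, -0.13 to 0.17 for AT3G04650 and -0.079 to 0.46 for QQS. Transgene-free against T+ lines ranged from -0.097 to 0.52 for AT1G75945 and -0.072 to 0.20 for QQS. The difference of dwarf effects ranged from -0.97 to 0.47 for AT1G75945, -0.22 to 0.065 for AT3G04650 and -0.15 to 0.39 for QQS.

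Counts of called genes over all tested genes moved more. Gen1 dwarf against T+ dwarf gave 1 as reported and 34 by DESeq2. Gen2 dwarf against Gen1 dwarf gave 51, against 0 under the block, 1 without Gen2 dwarf 4, 0 without Gen2 dwarf 5, 115 with line samples only and 340 by DESeq2. Gen2 large against T+ normal gave 68, against 41 without scaling, 116 under the block and 376 by DESeq2. Transgene-free against T+ lines gave 4, against 5 to 268. Gen2 dwarf against Gen2 large gave 2920, against 1371 under the block and 1943 without Gen2 dwarf 4 and no block, and the difference of dwarf effects 142, against 92 under the block and 646 by DESeq2. Without 1 replicate these counts ranged over 1 to 10, 0 to 156, 13 to 167, 2 to 51, 1186 to 2988 and 16 to 291, in the order given, and T+ dwarf against T+ normal, with 3255, over 1927 to 2653. Under the block the 2 samples left out and the block term cannot be told apart. AT1G75945 is limited by depth, at 8 to 124 counts in lines.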
